A study of Oryza sativa with 6 samples.

Results

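The JAZ genes of rice encode transcriptional repressors of the jasmonate response, and 10 of their loci were followed here in root tips before and after a short exposure to aluminium (Al). The members were every probe set of the deposited table whose annotation names one of those 10 loci, which gave 11 probe sets out of 57258, and 10 genes out of 37390, on the Affymetrix Rice Genome array. The annotation describes 5 of the loci as ZIM motif family proteins and the other 5 as pnFL-2. None of the 11 probe sets was assigned to a second locus, and all 11 were called present on all 6 arrays.

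RNA came from root tips (0 to 1 cm) of 5-d-old seedlings of a Japonica rice, in 3 samples taken after 6 h with 50 µM Al in 0.5 mM CaCl2 at pH 4.5 and 3 samples taken before Al. Seedlings of both groups had been germinated in water and floated on 0.5 mM CaCl2, and no transgene or mutant was involved. The samples are labelled as biological repeats, but nothing says whether each came from its own culture, so the p-values cover only the variation among these 6 samples, which may be technical. No tips kept for the same hours without Al were analysed here, so Al and time in solution cannot be told apart, nor can pH, which is not given for the solution before Al.

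JAZ proteins carry a TIFY (ZIM) motif, through which they bind one another and an adaptor of TOPLESS-type corepressors, and a Jas motif, through which they bind MYC-type bHLH transcription factors and hold them inactive. When jasmonoyl-isoleucine, the active hormone, accumulates, it joins JAZ proteins to the F-box receptor COI1, and the repressors are ubiquitinated and degraded. The freed MYC factors activate their targets, among them JAZ genes themselves, so that JAZ transcripts are widely used as early jasmonate response markers in Arabidopsis and rice. The loci are called below by their TIFY names, since JAZ numbers differ between published schemes.

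All 11 JAZ probe sets were higher after Al, by 0.53 to 3.74 on the log2 scale (a fold of 1.44 to 13.4). The signals of the 3 arrays after Al did not overlap those of the 3 arrays before it for any of the 11. Counted by gene, with the probe set of the highest mean signal standing for a gene, all 10 rose (limma, adjusted p under 0.05) and 6 rose at least 2-fold, with a median log2 change of 2.07. Over all genes tested, 15.9% were called higher, 5.04% were called higher by at least 2-fold and the median log2 change was -0.04. The 10 loci were chosen with earlier results of these data known, and other JAZ loci, with weaker or undetected ones among them, are described below. Counted by probe set, 14.3% of 25283 were called higher, and the groups did not overlap upward for 19.6%. The changes of 6 of the 11 JAZ probe sets lay above 2.55, the 99th percentile of log2 change over all tested probe sets.

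**Figure D1:**
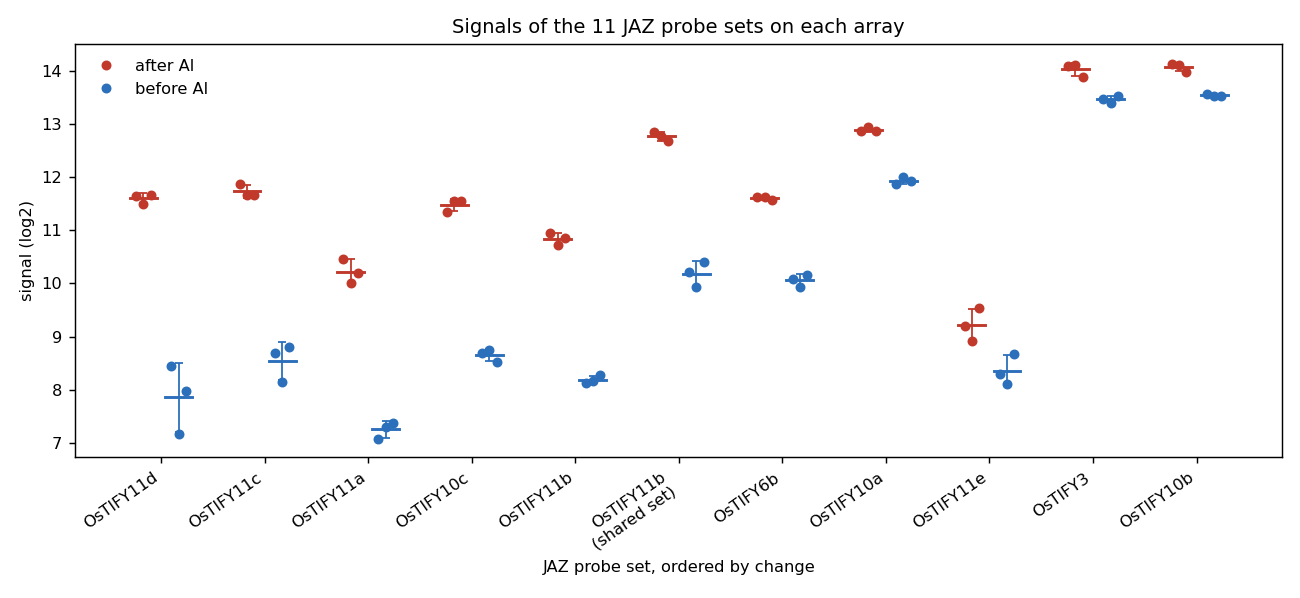
Log2 signal (y axis) of each JAZ probe set (x axis, ordered by change) on the 3 arrays after Al (red) and the 3 arrays before Al (blue). Points are arrays, horizontal bars are means and error bars are SD (n = 3). The red points lie above the blue points for all 11 probe sets, and OsTIFY11d is the most spread before Al, at 7.16 to 8.45.

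The TIFY11 genes are a subfamily of short JAZ proteins, and 3 of them stand side by side on chromosome 3 within 17.9 kb of the probe set alignments. OsTIFY11a (LOC_Os03g08310, chromosome 3, 4211117 to 4212155, minus strand), which raises salt tolerance when overexpressed in rice, had 10.46, 10.01 and 10.20 (log2 signal) after Al, against 7.08, 7.30 and 7.38 before it. The lowest array after Al was thus far above the highest array before Al. Its log2 change was 2.97 ± 0.14 (SE), with a 95% interval of 2.67 to 3.28 (limma, adjusted p = 3.42e-07).

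OsTIFY11c (LOC_Os03g08320, 4215840 to 4217175, plus strand) lies 3.69 kb away on the opposite strand and had 11.87, 11.67 and 11.66 after Al, against 8.69, 8.14 and 8.81 before it. The arrays after Al lay close together, while the second array before Al was below the rest of its group. The log2 change was 3.19 ± 0.15 (SE), a fold of 9.12 (limma, adjusted p = 4.85e-07).

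OsTIFY11b (LOC_Os03g08330, 4228000 to 4229007, plus strand), which increases grain size when overexpressed in rice, was the one member with more than one probe set. Its dimmer probe set had 10.95, 10.72 and 10.85 after Al, against 8.12, 8.17 and 8.27 before it. Its brighter probe set, marked as shared between similar transcripts (its name ends in _s_at), had 12.84, 12.77 and 12.68 after Al, against 10.21, 9.93 and 10.40 before it. Both carry a cross-hybridisation note in the annotation, and both separated the groups, with log2 changes of 2.65 ± 0.09 (SE) for the dimmer set and 2.58 ± 0.11 (SE) for the shared one. The changes of the 2 sets differed by 0.07 ± 0.14 (SE; two-sided exact permutation test on the within-array differences, p = 0.7, 3 arrays a group), less than the spread between arrays.

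On chromosome 10, OsTIFY11d (LOC_Os10g25290, 12738385 to 12739510, minus strand) had the largest change of the 10 genes. It had 11.65, 11.50 and 11.66 after Al, against 8.45, 7.16 and 7.97 before it, so that the arrays before Al differed from one another far more than those after it. The log2 change was 3.74 ± 0.26 (SE), with a 95% interval of 3.16 to 4.31 (limma, adjusted p = 4.23e-06), which ranked 89 from the top among the 25283 tested probe sets.

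OsTIFY11e (LOC_Os10g25230, 12699795 to 12700622, minus strand), 37.8 kb from OsTIFY11d, had 9.19, 8.92 and 9.53 after Al, against 8.30, 8.10 and 8.68 before it. The groups were separated by a narrow gap, with the lowest array after Al just above the highest before it. Its log2 change was 0.85 ± 0.18 (SE), and its adjusted p was the highest of the members (limma, adjusted p = 0.00562).

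The TIFY10 genes showed one large and 2 modest changes. OsTIFY10c (LOC_Os09g26780, chromosome 9, 16272520 to 16274267, minus strand), whose protein acts in the jasmonate-induced resistance of rice to bacterial blight, had 11.35, 11.54 and 11.55 after Al, against 8.70, 8.74 and 8.53 before it. Both groups were tight, and the log2 change was 2.82 ± 0.09 (SE), a fold of 7.06 (limma, adjusted p = 3.32e-08, the lowest of the members).

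OsTIFY10a (LOC_Os03g28940, chromosome 3, 16362458 to 16364801, minus strand) had 12.87, 12.94 and 12.86 after Al, against 11.87, 12.00 and 11.93 before it. Its probe set is marked as shared, and its log2 change was 0.96 ± 0.06 (SE), a fold of 1.94. OsTIFY10b (LOC_Os07g42370, chromosome 7, 25346338 to 25348548, plus strand) had 14.12, 14.11 and 13.98 after Al, against 13.57, 13.52 and 13.52 before it. This was the smallest change of the 10 genes, 0.53 ± 0.05 (SE; limma, adjusted p = 4.2e-05), and still several times its standard error. The OsTIFY10b probe set carries a cross-hybridisation note in the annotation.

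OsTIFY6b and OsTIFY3 belong to other subfamilies. OsTIFY6b (LOC_Os09g23660, chromosome 9, 14055111 to 14059315, minus strand) had 11.63, 11.62 and 11.56 after Al, against 10.08, 9.93 and 10.16 before it, on a probe set marked as open to cross-hybridisation (its name ends in _x_at). Its log2 change of 1.55 ± 0.07 (SE) lay between the large and the small changes of the family. OsTIFY3 (LOC_Os04g55920, chromosome 4, 33087399 to 33091166, plus strand), which acts in spikelet development and binds OsbHLH148, had 14.09, 14.10 and 13.89 after Al, against 13.47, 13.40 and 13.52 before it. The groups did not overlap, and the log2 change was 0.56 ± 0.06 (SE; limma, adjusted p = 0.000132). The OsTIFY3 probe set also carries a cross-hybridisation note.

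In order of change, the 10 genes ran OsTIFY11d, OsTIFY11c, OsTIFY11a, OsTIFY10c, OsTIFY11b, OsTIFY6b, OsTIFY10a, OsTIFY11e, OsTIFY3 and OsTIFY10b. The 95% intervals of neighbours in this order overlapped, except on either side of OsTIFY6b, whose interval of 1.39 to 1.71 touched neither that of OsTIFY11b (2.34 to 2.82) nor that of OsTIFY10a (0.83 to 1.08). Signals of different probe sets do not measure levels on one scale, so no order of levels is given.

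**Figure D2:**
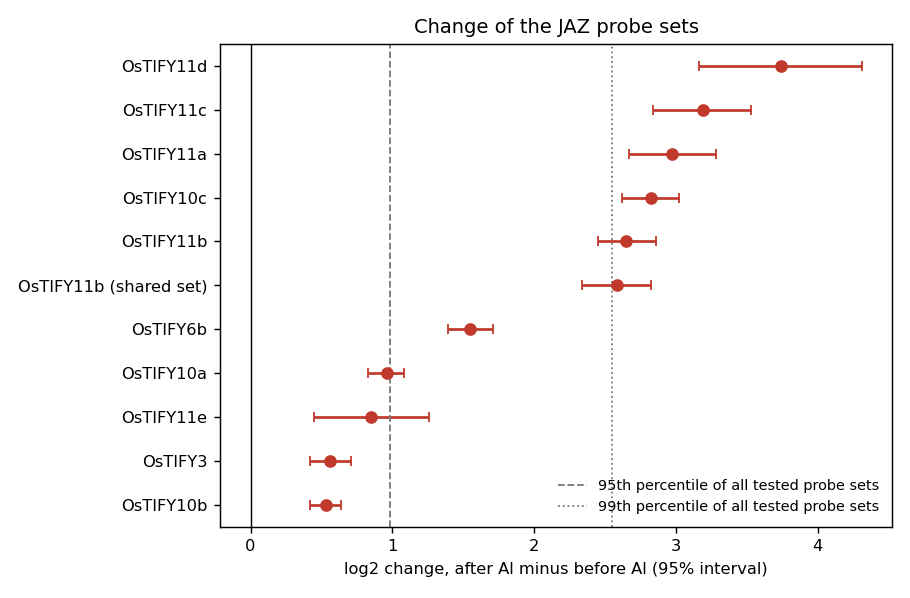
Log2 change after Al relative to before Al (x axis) of the 11 JAZ probe sets (rows), with 95% intervals from the limma fit. Grey lines mark the 95th percentile (0.98, dashed) and the 99th percentile (2.55, dotted) of log2 change over all tested probe sets. OsTIFY11d, at 3.74, is the farthest right and OsTIFY10b, at 0.53, the farthest left, with a gap between OsTIFY11b and OsTIFY6b.

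Whether close relatives changed by unequal amounts was examined in 7 pairs, from the difference between both probe sets within each array. OsTIFY11d changed by 2.88 ± 0.36 (log2, SE) more than its chromosome 10 relative OsTIFY11e. OsTIFY10c changed by 2.29 ± 0.12 more than OsTIFY10b and by 1.86 ± 0.09 more than OsTIFY10a, and OsTIFY10a by 0.43 ± 0.06 more than OsTIFY10b. Among the 3 adjacent genes of chromosome 3, OsTIFY11c changed by 0.61 ± 0.09 more than OsTIFY11b. In these 5 pairs the within-array differences of the groups did not overlap, which gives p = 0.1 in a two-sided exact permutation test (0.14 adjusted over the 7 pairs), the smallest p that 3 arrays against 3 allow. The other pairs, OsTIFY11c with OsTIFY11a (0.22 ± 0.24, exact p = 0.5) and OsTIFY11a with OsTIFY11b (0.39 ± 0.19, exact p = 0.2), overlapped. Some relatives also differed in mean signal before Al, at 8.66 for OsTIFY10c, 11.93 for OsTIFY10a and 13.54 for OsTIFY10b. OsTIFY11d and OsTIFY11e were closer, at 7.86 and 8.36. Whether the signal level affects the size of a measured change was not tested.

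The genes beside the tandem members were read from the same fit. On chromosome 3, 9 genes with neighbouring locus numbers were on the array and 6 were tested. Of these 6, 0 were called higher and 0 lower, against 15.9% and 17.5% of all genes tested. The log2 changes of the 6 neighbours ran from -0.23 to 0.07 (lowest limma adjusted p = 0.078), against 2.58 to 3.19 for the 3 JAZ genes they flank. The nearest tested gene on one side, LOC_Os03g08300, described as a beta-1,4-mannosyltransferase, had a log2 change of -0.23 ± 0.09 (SE), and the nearest on the other side, LOC_Os03g08350, one of -0.08 ± 0.28.

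On chromosome 10, 13 such genes were on the array and 6 were tested. Of these 6, 1 was called higher and 0 lower, against 15.9% and 17.5% of all genes tested. LOC_Os10g25300, tested but not called, met the presence filter only through the arrays after Al. LOC_Os10g25210, described as an F-box protein interaction domain protein, rose by 0.89 ± 0.20 (SE; limma, adjusted p = 0.00806). The neighbour of OsTIFY11d with the largest change, LOC_Os10g25310 (ids4-like), had a log2 change of -0.91 ± 0.32 and did not pass (limma, adjusted p = 0.0555). LOC_Os10g25250, a further JAZ locus between OsTIFY11e and OsTIFY11d, was not called present on any array.

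**Figure D3:**
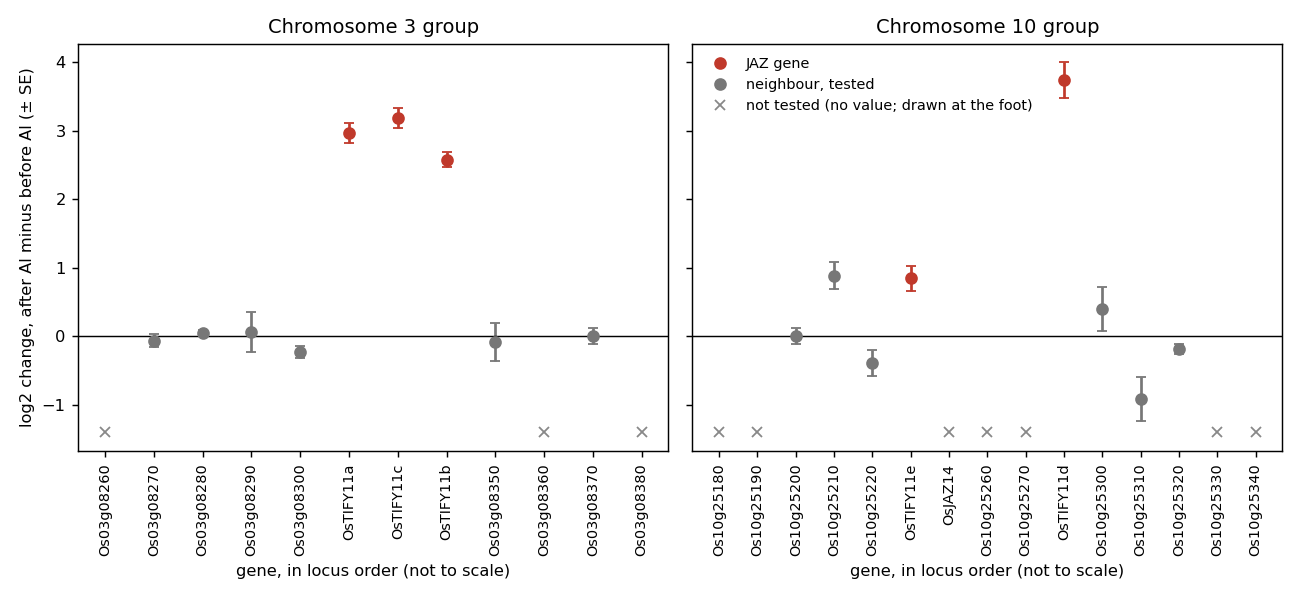
Log2 change after Al relative to before Al (y axis, ± SE) of the JAZ genes (red) and the genes beside them (grey) in locus order on chromosomes 3 and 10. The x axis is not to scale, and crosses at the foot mark genes on the array that were not tested. The 3 JAZ genes of chromosome 3 lie at 2.58 to 3.19 while their tested neighbours lie at -0.23 to 0.07.

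Variation among arrays of one group was small for most members, with SDs of 0.04 to 0.31 after Al and 0.03 to 0.65 before it (n = 3 each). The second array before Al was the lowest of its group for 7 of the 10 JAZ genes, against 32.7% of all tested probe sets. It was also the lowest for 11 of 22 other tested TIFY and jasmonate pathway genes. The members' median deviation there was -0.10 (log2) against 0.00 over all tested probe sets. The largest such deviation, -0.70, was that of OsTIFY11d. Without that array, OsTIFY11d still rose by 3.39, and all 10 genes kept their calls. After Al, the third array was the lowest for 6 of the 10 JAZ genes and 11 of those 22 others, against 33.7% of all tested probe sets.

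The other JAZ loci gave 3 further tested genes of 5, and all 3 were called higher, against 15.9% of all genes tested. The presence filter admitted OsTIFY9 wholly, and OsTIFY5 mostly, through the arrays after Al, so this count leans towards rises. OsTIFY9 (LOC_Os04g32480) was called present on all 3 arrays after Al, at 9.16, 9.14 and 8.95, and on none before it, at 6.02, 4.21 and 3.26. It was at least 24.0-fold higher on the means of the groups (limma, adjusted p = 0.000177, and 0.000655 with no filter on dim probe sets). Because of the filter, the first of these p-values is not independent of the rise. The bound equals the measured fold, because each signal before Al, though not called present, lay above the lowest signal called present on its array. That bound allows for the undetected signal and not for the spread between arrays. Its log2 change of 4.59 became 5.35 without the first array before Al, 3.97 without the third one and 4.34 with signals below 4 set to 4.

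OsTIFY5 (LOC_Os07g05830) had 7.16, 7.02 and 6.75 after Al, against 4.64, 5.15 and 4.96 before it. It was called present on only 1 array before Al, the groups were well apart, and it rose by 2.06 ± 0.25 (SE; limma, adjusted p = 0.000167). OsTIFY6a (LOC_Os08g33160), the relative of OsTIFY6b, averaged 10.49 ± 0.02 after Al and 10.18 ± 0.19 before it (SD, n = 3 each). Its rise of 0.31 ± 0.09 (limma, adjusted p = 0.0314) was lost in 7 of 13 alternatives, among them each fit without 1 of the 3 arrays after Al, without the second or the third array before Al, without the intensity trend and without the filter on dim probe sets (adjusted p from 0.0605 to 0.106). LOC_Os10g25250, LOC_Os03g27900 and one more ZIM motif locus found by its product text after the values were seen, LOC_Os02g49970, were not called present on any array.

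The rest of the jasmonate pathway was read through a list of 24 genes, of which 19 were tested, with 10 called higher, 3 lower and a median log2 change of 0.54. Over all genes tested, 15.9% were called higher and 17.5% lower. The F-box receptors, which bind the hormone together with JAZ proteins, were not among the rising genes. OsCOI1a (LOC_Os01g63420) had 11.25, 11.17 and 11.17 after Al, against 11.56, 11.48 and 11.44 before it, and its log2 level fell by 0.30 ± 0.06 (SE; limma, adjusted p = 0.00409). OsCOI1b (LOC_Os05g37690) had a log2 change of -0.21 ± 0.07 (limma, adjusted p = 0.0385), a call lost in 7 of 13 alternatives, among them each fit without 1 of the arrays before Al and without the first or the third array after Al (adjusted p from 0.054 to 0.114). OsCOI2 (LOC_Os03g15880) did not pass, at 0.05 ± 0.09.

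Among the transcription factors of the response, 3 of 4 were called higher and 0 lower, against 15.9% and 17.5% of all genes tested. RERJ1 met the presence filter only through the arrays after Al, so this count and that of the whole list lean towards rises. RERJ1 (LOC_Os04g23550), a jasmonate-induced bHLH factor of rice, was called present on all 3 arrays after Al, at 8.98, 8.46 and 8.90. It was called present on none before Al, at 5.17, 4.28 and 5.30. On the means of the groups it was 14.6-fold higher (limma, adjusted p = 6.45e-06, and 3.03e-05 with no filter on dim probe sets). Because of the filter, the first of these p-values is not independent of the rise. As for OsTIFY9, this measured fold is a bound that allows for the undetected signal and not for the spread between arrays. The RERJ1 log2 change of 3.86 became 3.54 without the second array before Al and 4.05 without the third one. OsbHLH148 (LOC_Os03g53020), the bHLH partner of OsTIFY3, had 10.67, 10.29 and 10.51 after Al, against 8.98, 8.16 and 8.59 before it. Neither factor's groups overlapped, and OsbHLH148 rose by 1.91 ± 0.18 (SE). OsMYC2 (LOC_Os10g42430), the bHLH factor that JAZ proteins repress, rose by 0.76 ± 0.13 (limma, adjusted p = 0.00132), while JAmyb (LOC_Os11g45740), a jasmonate-responsive MYB gene, did not pass, at 0.15 ± 0.45.

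Of the 3 TOPLESS-related genes, which encode corepressors, 0 were called higher and 1 lower, against 15.9% and 17.5% of all genes tested. LOC_Os01g15020 had a log2 change of -0.22 ± 0.07 (limma, adjusted p = 0.0376) on its brighter probe set and -0.37 ± 0.08 on the other. The first of these calls was lost in 7 of 13 alternatives, among them each fit without 1 of the arrays before Al and without the first or second array after Al (adjusted p from 0.0584 to 0.131). LOC_Os08g06480 (0.06 ± 0.07) and LOC_Os03g14980 (0.09 ± 0.05) did not pass.

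Genes of jasmonate synthesis and turnover were partly higher. Of 11 synthesis genes, 7 were tested, with 5 higher and 0 lower, against 15.9% and 17.5% of all genes tested. AOS1 (LOC_Os03g55800), the allene oxide synthase, had 11.58, 11.28 and 11.15 after Al, against 9.37, 9.33 and 9.38 before it, and rose by 1.97 ± 0.10 (SE). OPR7 (LOC_Os08g35740), which reduces the precursor OPDA, rose by 0.61 ± 0.05. The allene oxide cyclase gene AOC (LOC_Os03g32314) rose by 0.36 ± 0.05, on a probe set with 0 probes listed as matching the locus. Another AOC probe set, with 11 matching probes, was not called present on any array and was not tested, so the AOC call rests on the former set alone. The lipoxygenase gene LOC_Os08g39840, whose probe set was called present on just 2 arrays of the group before Al, rose by 1.49 ± 0.33. LOC_Os04g37430 rose by 0.98 ± 0.14 on its brighter probe set, called present on 1 array of that group, and by 1.08 ± 0.18 on the other, called present on all 6 arrays. Their relatives LOC_Os08g39850 (0.54 ± 0.32) and LOC_Os05g23880 (-0.29 ± 0.23) did not pass. JAR1 (LOC_Os05g50890), which joins jasmonate to isoleucine, rose by 0.88 ± 0.12. JAR2 (LOC_Os01g12160), also listed for conjugation, was called present on too few arrays to be tested. CYP94C2b (LOC_Os12g05440), a P450 that oxidises and inactivates the conjugate, rose by 1.55 ± 0.18. Its probe set carries a cross-hybridisation note with LOC_Os12g05480. Such notes also stand on the probe sets used for OsTIFY5, OsCOI1a, OsMYC2, RERJ1, OsbHLH148, AOS1, OPR7 and LOC_Os08g39840, among others.

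**Figure D4:**
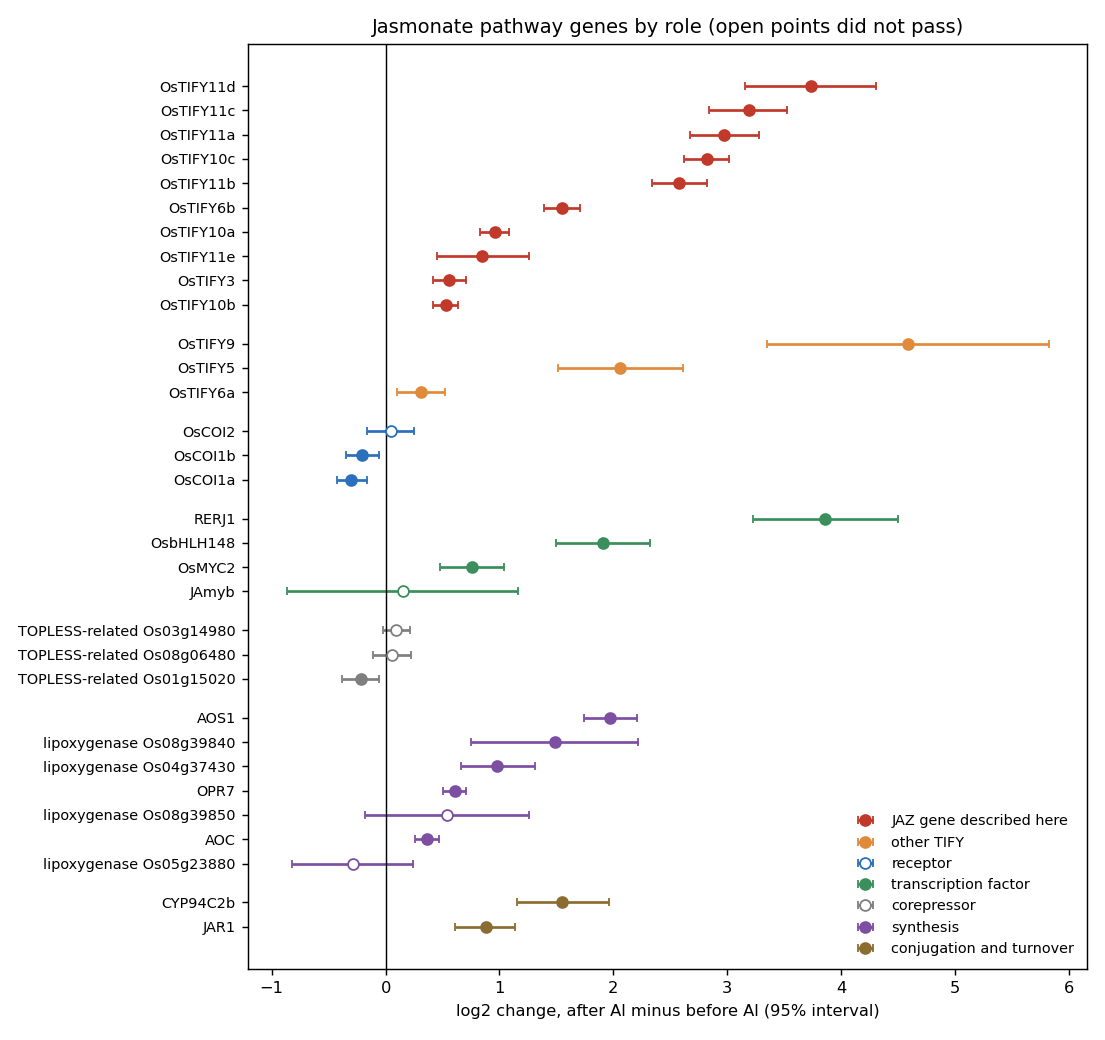
Log2 change after Al relative to before Al (x axis, 95% interval) of the tested jasmonate pathway genes (rows), coloured by role. Filled points passed the test and open points did not. The 10 JAZ genes run from 0.53 to 3.74, the receptors lie at -0.30 to 0.05 and the TOPLESS-related genes at -0.22 to 0.09.

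By distance over the 6 arrays, after centring on the mean before Al, the genes most like OsTIFY10b (the JAZ gene of highest mean signal) were LOC_Os02g46962 (protein transporter, distance 0.040), LOC_Os06g19400 (C2 domain protein, 0.048), LOC_Os03g49770 (oxysterol-binding protein, 0.054), LOC_Os10g33660 (0.055) and LOC_Os05g10810 (0.065). They were picked for this likeness from 13337 genes with a described product, so their log2 changes of 0.50 to 0.52 are no result.

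In the authors' deposited table, the 11 JAZ probe sets had folds of mean linear signal of 1.45 to 12.5 and unadjusted p-values of 6.3e-06 to 0.025. After Benjamini-Hochberg adjustment over the tested probe sets, 9 of those 11 deposited p-values in the authors' deposited table stayed under 0.05. The exceptions in the authors' deposited table were OsTIFY11d (0.062) and OsTIFY11e (0.108).

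Each array detected 24836 to 25492 probe sets. Signals of same-group arrays had a correlation of 0.987 across probe sets, and those of arrays from both groups 0.951 to 0.956. The root markers OsPIN2, Lsi1 and QHB were present on all 6 arrays, as root tissue asks, though this does not place the tissue at the tip. Their summed linear signal was 7670 to 9390 after Al and 9950 to 11400 before it, with 0 of the 3 at 0. Of these, OsPIN2, an auxin carrier of the root tip, fell by 0.35 ± 0.08 (log2, SE). For the 2 green tissue genes, Rubisco small subunits, the sum was 251 to 293 after Al and 342 to 398 before it, with neither at 0. LOC_Os12g17600, the one of them called present on all 6 arrays, fell by 0.68 ± 0.16. The probe sets summed here have 0 probes listed as matching their loci. A dimmer set of LOC_Os12g19470 with 11 matching probes, called present on all 3 arrays after Al and on none before it, had a log2 change of 0.92 ± 0.33 and did not pass (limma, adjusted p = 0.0667). The part of these shifts in the JAZ results was not tested, and in bulk tips a change in the share of a cell type and a change in RNA per cell cannot be told apart.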

How the data were processed

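RNA of 6 root tip samples was measured on Affymetrix arrays. The authors deposited log2 signals, and the submitters' processing notes name MAS5. No version or target value for MAS5 appears in the labels. Trimmed means of the linear values (2% off each end) were 497.0 to 497.2, and the deposited value table and the second table held the same log2 signals (largest difference 0.0). That second table adds detection calls and, per the file headers, the authors' p-value and fold change of each probe set, with no test named. That this fold is a ratio of linear means was read from its values, not from a header.

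Genes were named through that table's annotation, with 45882 probe sets on 1 gene, 1416 on more than 1 and 9960 on no gene. Of 23481 RefSeq accessions in it, 0 matched the reference gene table, so gene symbols were written from prior knowledge of the loci. Coordinates are the table's probe set alignments, whose genome build no label or header names.

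The 25283 probe sets detected as present on 3 or more of the 6 arrays entered a two-sided test with limma 3.58.1 in R 4.3.3 (lmFit, then eBayes with trend), 3 arrays against 3, with no covariate, Benjamini-Hochberg adjustment over all of them and a threshold of 0.05. The fit had 4 residual degrees of freedom, and 9.47 after sharing the spread. Its number of arrays limits its precision. Positive changes are higher after Al, and errors are those of the fit. A probe set called present on no array of one group has a fold bound ("at least"), from the group means with each array's own signal raised to the lowest signal called present (2.07 to 2.98 on the log2 scale) where it lay below. Pairs of JAZ genes were compared with exact permutation tests in scipy 1.17.1. The limma step was tested on simulated data. The named genes were all probe sets of the 10 loci, the listed pathway, root and green tissue genes, the neighbouring loci and the 5 genes closest to the brightest JAZ gene, with LOC_Os02g49970 added later. Members and lists were chosen with earlier results of these data known.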

Additional observations from a re-analysis of the deposited data

How the results depend on the processing

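Each JAZ probe set was refitted under 14 alternatives: presence on all 6 arrays or no filter, no intensity trend, quantile normalization, median centring, signals below 4 set to 4, the replicate number as a block, leaving out each array in turn, and the deposited p-values adjusted over the tested probe sets. Of the 154 values, 152 kept their direction and their side of the threshold, and the exceptions were OsTIFY11d and OsTIFY11e with the deposited p-values. The 10 JAZ genes passed under every limma alternative, and also with the median over a gene's probe sets. Leaving out single arrays gave log2 changes of 3.39 to 4.03 for OsTIFY11d. The pathway count of 13 stayed between 11 and 13, and the count over all probe sets, 7639, between 6206 (without the second array before Al) and 7844 (with the replicate block). Same-numbered samples of both groups deviated together with r = 0.001 to 0.087, so the numbers were not taken to pair them. These numbers, and the block, follow the sample titles. The data columns number the arrays after Al from 2 to 4, and by those numbers the 2 shared pairs had r = 0.021 and 0.007. The block changed no JAZ call and left 13 pathway genes called. Leaving out single arrays turned the sign of OsCOI2 (-0.02 to 0.16) and LOC_Os12g19470 (-0.13 to 0.05), both without the second array after Al, and of JAmyb (-0.34 to 0.46), without the second array before Al, and none of the 3 passed in the fit with all arrays. Lsi1, at -0.31 (limma, adjusted p = 0.0509), passed in 5 alternatives. The cause of these shifts was not tested. With 3 arrays a group, pairs of genes cannot reach an exact p under 0.1, and probe sets near the lowest signals called present are limited by background.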
